A study of Rattus norvegicus with 8 samples.

Results

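Collagens, laminins and the genes of elastic fibres were followed in lung RNA from ventilated and non-ventilated rats. The members were the genes whose single symbol on the array named a collagen chain, a laminin chain, a nidogen, a fibulin, a fibrillin, elastin, fibronectin, a lysyl oxidase, Sparc, decorin, lumican, biglycan or tenascin C. The names matched 74 probe sets of 56 genes, out of 11217 named genes on the arrays. Where several probe sets matched 1 gene, the one brightest on average across all 8 arrays was taken. A probe set was tested when it reached log2 5 on at least 2 arrays, and 51 of the 56 genes did. Col11a1, Col27a1, Col9a2, Col4a4 and Col23a1 did not. Both control arrays lay below log2 5 for Col7a1, Col9a3 and Col5a3, so these 3 passed only through ventilated arrays and their higher values there are in part built into the selection.

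The lung holds its shape and recoil through this matrix. Fibrillar collagens form the tensile fibres, fibril-associated collagens bind to their surface, and lysyl oxidases cross-link both collagen and elastin. Elastic fibres, which let alveolar walls stretch and spring back, consist of an elastin core on fibrillin microfibrils, joined with the help of fibulins. Basement membranes under epithelium and endothelium are sheets of type IV collagen and laminin linked by nidogens, and type VI and VII collagens tie such sheets to the tissue below.

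The animals were male Harlan Sprague-Dawley rats of 340 to 400 g, and all RNA came from the dorsal-caudal quadrant of the lung. The prone group (n = 3) and the supine group (n = 3) were anaesthetised, tracheotomised and ventilated with tidal volumes of 18 mL per kg, called high in the labels, at 40 breaths per minute with a positive end-expiratory pressure of 0 cmH2O, for up to 3 h. The control group (n = 2) was not ventilated. The labels give no age, and the titles call each array a biological replicate. The tidal volume part of the supine titles reads SVt, which the labels do not explain, while their condition label gives high tidal volume as for the prone rats. Values are log2 GCRMA summaries, in which 1 unit is a doubling, and errors of differences are standard errors of the limma model.

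The lung epithelial genes Sftpc, Scgb1a1 and Ager, which mark alveolar type 2, airway and alveolar type 1 cells, read at least 13.29 on all 8 arrays. Over their full lists, alveolar type 1 markers (8 tested of 9) had a median of -0.88 in ventilated against control lungs. Of these 8, 7 were lower, 5 at an unadjusted p under 0.05 by limma, beside 10.6% of all probe sets. The medians were -0.32 for alveolar type 2 markers (8 of 8 lower) and 0.65 for airway markers (2 of 4 lower). Array medians lay between 7.77 and 7.95. On supine array 3 the gap between the 3′ and 5′ probe sets of beta-actin was 9.10, against 3.16 to 4.64 on the other arrays, a sign of degraded RNA. Prone array 2 and supine array 3 carried cardiac muscle transcripts. The atrial myosin light chain gene Myl7 read 9.59 and 7.92 there and 2.03 to 2.14 elsewhere. Prone array 1 and supine array 1 stood apart in neutrophil markers, with medians of 5.40 and 3.80 above the control mean, against 1.43 to 3.14 on the other ventilated arrays. In whole tissue, fewer cells of a type and less RNA per cell cannot be told apart.

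RefSeq, in the GRCr8 build, held the promoter of 41 of the 56 genes. The 250 bases before the gene start were searched on both strands for 4 motifs. GGGCGG, the GC box, was found in 23 of the 41 windows, or 56.1%, against 32.4% of 27457 promoters of the same length. The CCAAT box was found in 26.8% of the members' windows against 34.3% of all, the TATA box TATAAA in 12.2% against 13.1%, and the AP-1 motif TGANTCA in 4.88% against 6.36%. These shares are descriptions and carry no test. Windows are shown for the 3 members with the smallest p-values in ventilated against control lungs (Col7a1 at chr8:118483114-118483363 on the plus strand, Col6a5 at chr8:115462845-115463094 on the minus strand and Col8a2 at chr5:143870519-143870768 on the plus strand), and for Col1a2 (chr4:33518307-33518556, plus strand), the fibrillar collagen with the lowest value on supine array 1 against controls. Col4a1 and Col4a2, which encode the partner chains of type IV collagen, lie head to head, and the 76 bases between their starts (chr16:84885521-84885596, plus strand) are shown because both genes are read out below. Capitals mark the CCAAT box, the TATA box and the GC box on either strand.
Col7a1: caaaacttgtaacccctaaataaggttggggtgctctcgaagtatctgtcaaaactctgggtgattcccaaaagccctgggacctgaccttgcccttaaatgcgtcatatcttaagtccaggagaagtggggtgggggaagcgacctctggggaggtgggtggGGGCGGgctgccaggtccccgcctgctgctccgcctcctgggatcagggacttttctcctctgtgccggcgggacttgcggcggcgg
Col6a5: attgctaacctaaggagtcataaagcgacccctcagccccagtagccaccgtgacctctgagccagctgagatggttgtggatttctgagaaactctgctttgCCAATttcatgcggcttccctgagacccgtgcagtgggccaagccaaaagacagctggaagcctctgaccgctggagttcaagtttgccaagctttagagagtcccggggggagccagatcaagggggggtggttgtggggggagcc
Col8a2: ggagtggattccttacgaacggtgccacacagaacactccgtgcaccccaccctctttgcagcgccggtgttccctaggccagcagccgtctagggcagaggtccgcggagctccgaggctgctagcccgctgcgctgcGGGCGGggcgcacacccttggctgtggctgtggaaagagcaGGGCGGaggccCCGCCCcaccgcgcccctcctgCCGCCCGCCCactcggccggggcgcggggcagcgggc
Col1a2: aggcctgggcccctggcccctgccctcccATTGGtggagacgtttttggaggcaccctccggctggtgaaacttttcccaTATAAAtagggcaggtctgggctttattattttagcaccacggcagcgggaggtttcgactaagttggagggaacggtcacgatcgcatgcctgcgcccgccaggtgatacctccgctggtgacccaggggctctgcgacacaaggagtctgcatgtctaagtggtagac
Col4a1 to Col4a2: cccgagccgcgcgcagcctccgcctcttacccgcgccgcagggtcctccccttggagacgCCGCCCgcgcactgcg
The Col7a1 window held a GC box and no other of these motifs. Col8a2 held several GC boxes and Col6a5 a CCAAT box alone. Col1a2 held the TATAAA sequence at -170 and a reversed CCAAT box at -221 from its annotated start. These are matches of sequence, and whether they act as promoter elements was not tested.

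Ventilation against no ventilation left every member short of an adjusted p of 0.05. In the average of the prone and supine groups against control, 0 of 51 members passed limma's test with Benjamini-Hochberg adjustment over all probe sets, and 24 of 16896 probe sets did (0.142%). At an unadjusted p under 0.05 the members numbered 3 (Col7a1 and Col6a5 higher, Col8a2 lower), a share of 5.88% against 19.2% of all probe sets (8.53% higher and 10.6% lower). All 6 ventilated arrays lay on 1 side of both controls for 7 members, or 13.7%, against 29.6% of all probe sets. The 5 above the controls were Col9a3, Col6a2, Col6a5, Col7a1 and Lama5 (12.9% of probe sets lay above), and the 2 below were Col8a2 and Col13a1 (16.7% lay below). The median difference over the 51 members was 0.13 and that over all probe sets -0.10, with 29 members (56.9%) and 44% of probe sets above 0. For the unadjusted p and for groups that lay apart, the members' share was below that of all probe sets. Col7a1, Col9a3 and Col5a3 had entered through ventilated arrays alone. Over the 48 other members, 2 had an unadjusted p under 0.05, 5 lay apart and the median difference came to 0.08. In a fit blocked on the replicate number, members at an unadjusted p under 0.05 numbered 6, against 19.8% of probe sets, and 0 passed adjustment.

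**Figure D1:**
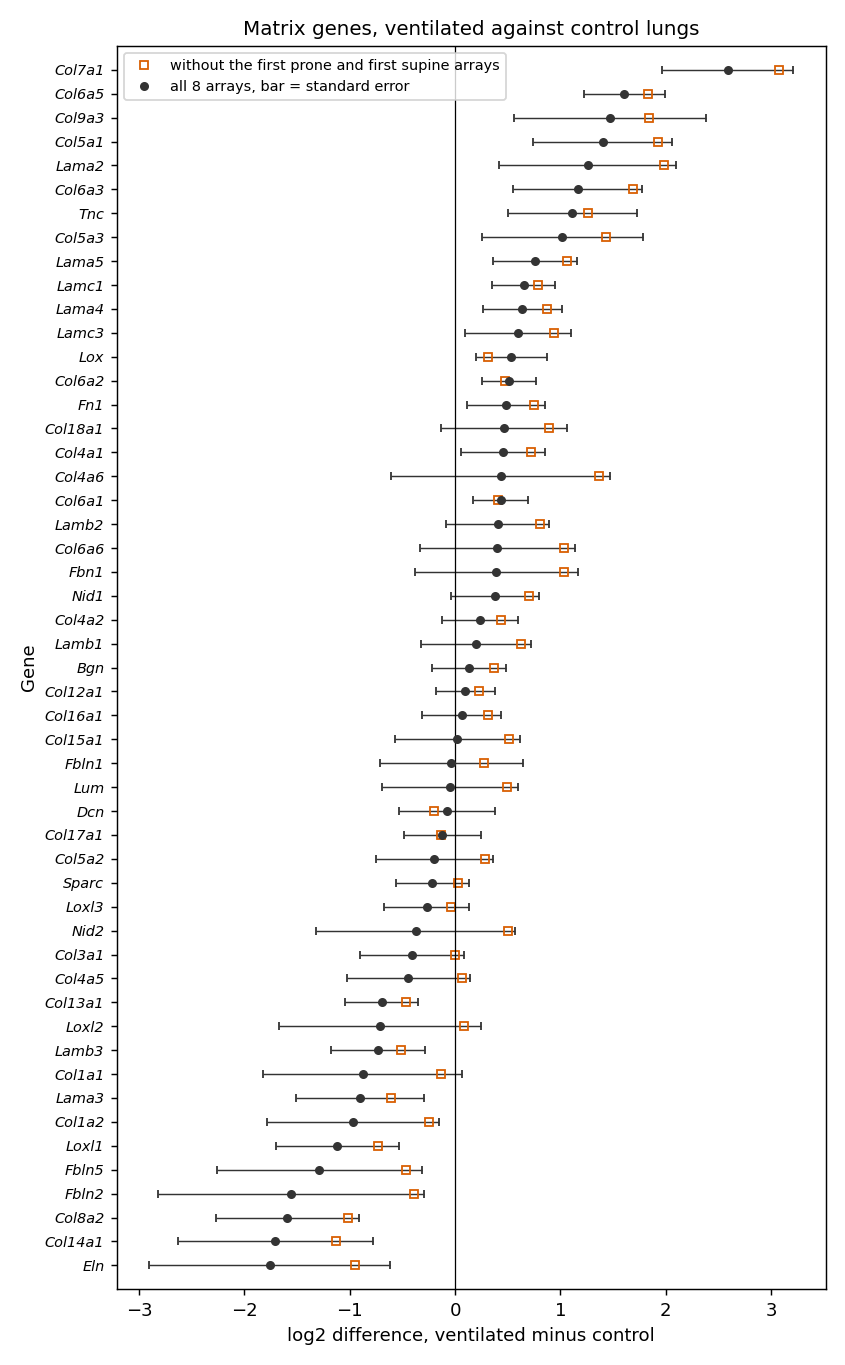
Log2 difference between the ventilated and the control group (x axis) for each of the 51 tested matrix genes (y axis). Filled circles are the fit to 8 arrays with its standard error and open squares the fit without the first prone and first supine arrays; the circles run from -1.76 for Eln to 2.59 for Col7a1.

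Most members shared a pattern within the 2 ventilated groups. Of the 51 members, 40 (78.4%) had their lowest value of the group on array 1 in both the prone and the supine group, against 24.8% of all probe sets. Lox alone (1.96%), by the brighter of its probe sets, had its highest value on array 1 in both, against 27.7% of all probe sets. At least 1 log2 unit below the control mean on both of these arrays were 16 members (31.4%), against 12.8% of all probe sets. The 11 members that were not lowest on both were Col9a3, Col4a2, Col6a1, Col6a2, Col17a1, Lama3, Lamb3, Lamc1, Lox, Dcn and Tnc. These counts were made after the values had been seen and are given without a test.

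The depth of this dip differed between roles. The mean of prone 1 and supine 1 minus the mean of the other 4 ventilated arrays had a median of -1.16 over the members and 0.02 over all probe sets. By role the medians were -2.43 for elastic fibre genes, -1.52 for fibrillar collagens, -1.46 for type VI, VII and VIII collagens, -1.38 for basement membrane collagens and -0.96 for laminins and nidogens. It was below 0 for 46 of 51 members and ranged from -3.48 to 0.65. Fibroblast markers, of which 11 of 14 listed were tested, had medians of -0.63 on prone 1 and -0.40 on supine 1, against -0.22 to 0.31 on the other ventilated arrays. Their mean log2 level was 10.20 and 10.44 in controls, 9.58 on prone 1 and 10.38 and 10.07 on the other prone arrays, but 10.00 on supine 1 and 9.93 and 9.64 on the other supine arrays. By this mean supine 1 was the highest supine array. Smooth muscle and pericyte markers, 12 tested of 13 listed, had medians of 0.00 on prone 1 and 0.22 on supine 1, against 1.23 and 0.68 on the other prone arrays and 1.11 and 0.15 on the other supine arrays. Their mean log2 level was 8.72 and 8.83 in controls, 8.91 to 10.08 in prone and 9.02 to 9.66 in supine lungs, and 10 of the 12 were above 0 in ventilated against control lungs. Neutrophil markers, 7 tested of 10 listed, had a mean log2 level of 6.47 and 6.76 in controls, 8.83 to 11.74 in prone and 8.82 to 11.03 in supine lungs. The part of these cell types in the dip was not tested.

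**Figure D2:**
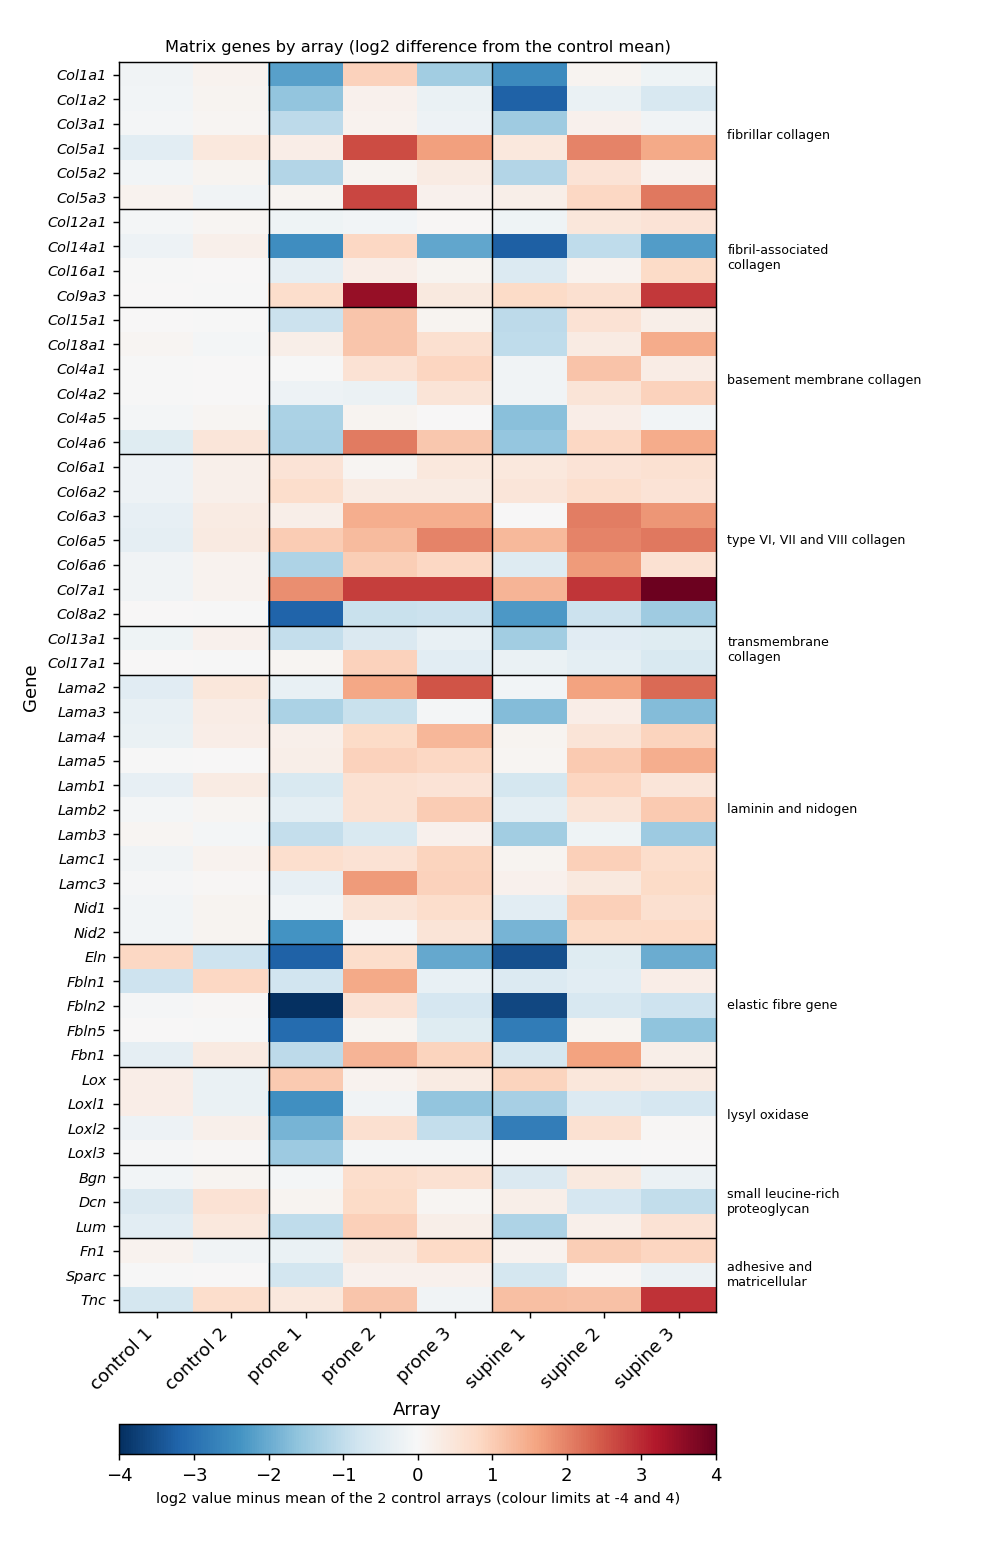
Heat map of the 51 tested matrix genes (rows, grouped by role) on the 8 arrays (columns); colour is the log2 value minus the mean of the 2 control arrays, limited at -4 and 4. The columns prone 1 and supine 1 are the bluest: 40 genes had the lowest value of the group on both.

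**Figure D3:**
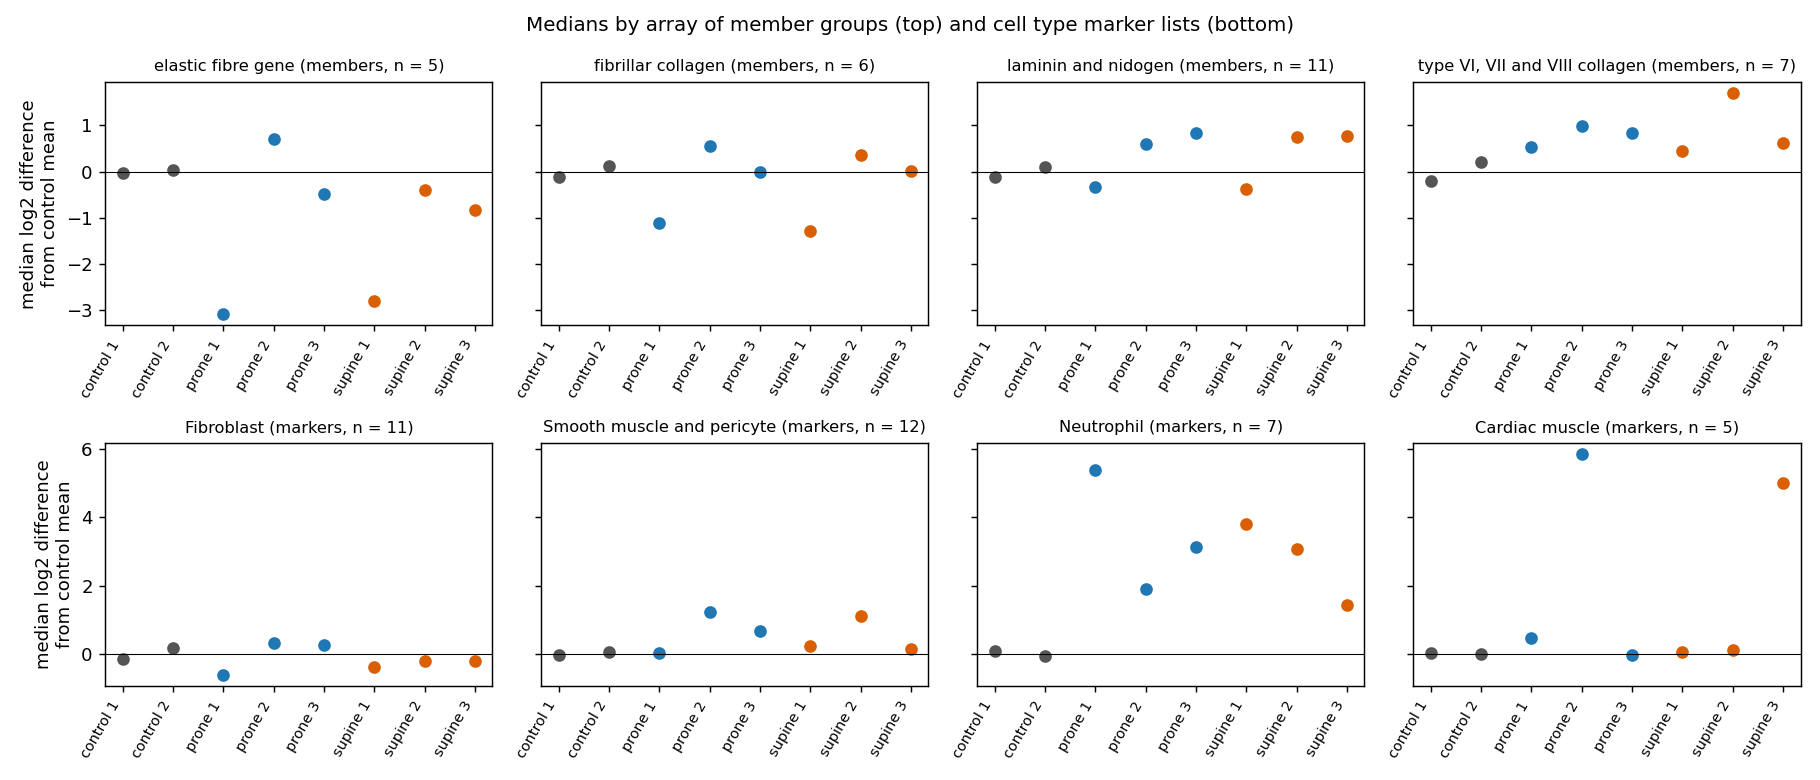
Median log2 difference from the control mean (y axis) on each array (x axis) for 4 groups of matrix genes in the top row and 4 lists of cell type markers in the bottom row. Elastic fibre genes lay at -3.09 and -2.80 on prone 1 and supine 1, where neutrophil markers lay at 5.40 and 3.80, and cardiac markers stood high on prone 2 and supine 3 (5.86 and 5.01).

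Elastic fibre genes had the lowest median of all roles in ventilated against control lungs, -1.29 over 5 genes, with 4 of the 5 below 0 (3 when arrays were centred on their medians) and 0 past an unadjusted p of 0.05. Eln, the elastin gene, read 11.87 and 10.24 on the control arrays, 7.82, 11.77 and 9.02 on the prone and 7.52, 10.57 and 9.06 on the supine arrays. Prone 2 and supine 2 lay between the controls, so the groups overlapped, and the 2 controls themselves were 1.63 apart. The difference was -1.76 ± 1.14 (adjusted p = 0.429), and -0.95 with both first ventilated arrays left out. A second, dimmer Eln probe set gave 0.67 ± 1.60, so the gene's 2 probe sets disagreed in sign. It read 10.37 on prone 2 and 4.23 on prone 1.

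Fbln5, which guides elastin onto microfibrils, read 10.62 and 10.57 in controls, 7.50, 10.71 and 10.11 in prone and 7.80, 10.71 and 8.99 in supine lungs. Both second arrays lay just above the controls and both first arrays about 3 units below them. Its difference was -1.29 ± 0.97 with all arrays and -0.46 without the first ones. Fbln2, a fibulin of elastic fibres and basement membranes, read 8.53 and 8.61 in controls, 4.45, 9.13 and 7.89 in prone and 4.92, 7.94 and 7.73 in supine lungs. Every supine array lay below the controls, but the prone arrays lay on both sides, and the difference was -1.56 ± 1.26, or -0.39 without the first arrays. Prone 1 and supine 1 read below log2 5, so the size of the fall there depends on values that may be background.

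Fbn1, the main fibrillin of microfibrils, read 10.41 and 11.12 in controls, 9.71, 12.14 and 11.67 in prone and 10.06, 12.36 and 11.01 in supine lungs. Unlike elastin, it stood above both controls on prone 2, prone 3 and supine 2, and its difference was 0.39 ± 0.78. Its second probe set gave -0.33 ± 1.13. Fbln1, a further fibulin, gave -0.04 ± 0.68 with its controls 1.64 apart. The second Fbln1 probe set gave -1.20 ± 0.87, and -1.88 ± 0.97 in supine against control lungs. Standard errors of 0.68 to 1.26 in this group, for the probe sets chosen, went with arrays of 1 group that lay up to 4.68 apart.

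**Figure D4:**
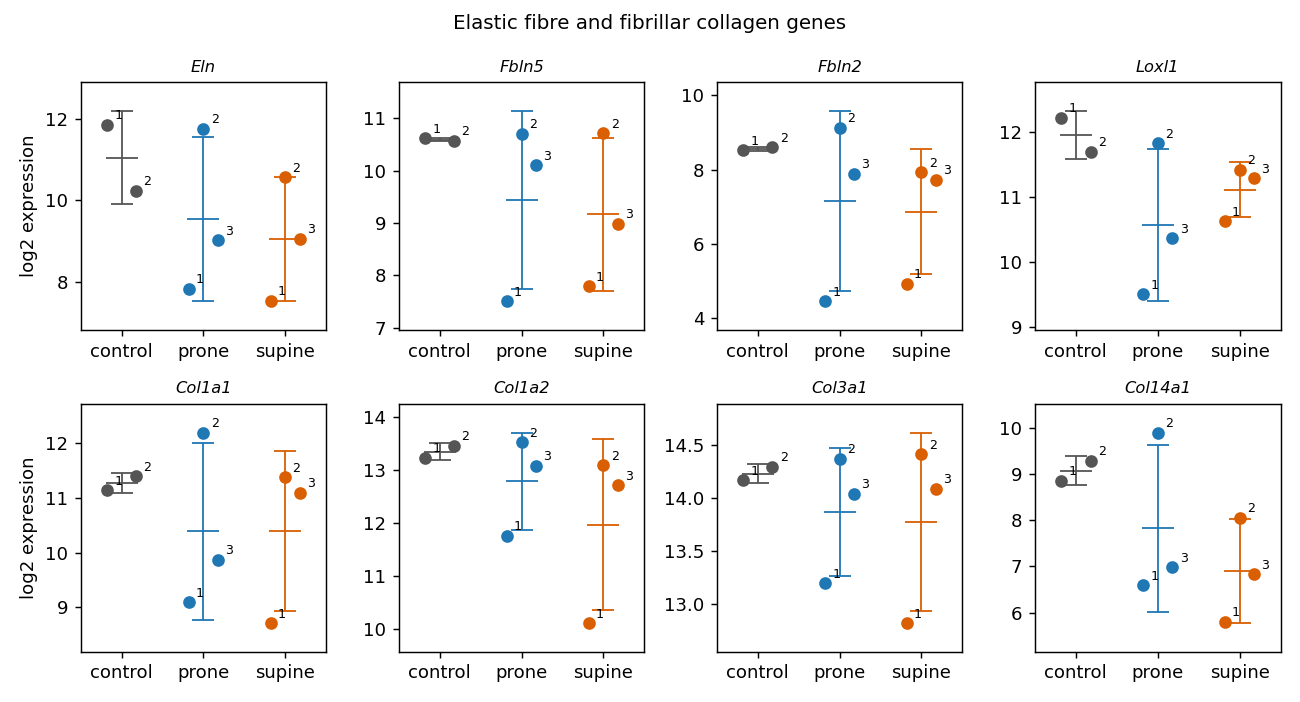
Log2 expression (y axis) of 8 matrix genes by group (x axis). Eln, Fbln5 and Fbln2 are elastic fibre genes and Loxl1 is a lysyl oxidase. Col1a1, Col1a2 and Col3a1 are fibrillar collagens and Col14a1 is a fibril-associated collagen. Points are arrays with their replicate number, cross-bars the group means and whiskers the SD. Point 1 of the prone and supine groups is the lowest of its group in all 8 panels, for example 4.45 and 4.92 for Fbln2.

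The elastic fibre and microfibril partners were 14 other genes, and 2 were lower at an unadjusted p under 0.05 and 0 higher, beside 10.6% and 8.53% of all probe sets. Mfap2, a small microfibril glycoprotein, read 7.03 and 7.30 in controls, 4.06, 5.07 and 4.80 in prone and 3.63, 6.43 and 4.22 in supine lungs. All 6 ventilated arrays lay below both controls, with a difference of -2.46 ± 0.70 (adjusted p = 0.143). Arrays 1 and 3 of both ventilated groups read below log2 5, so the size of this difference depends on values that may be background. Efemp1, a fibulin-like protein, read 12.66 and 12.87 in controls, 11.29, 11.98 and 11.56 in prone and 10.23, 11.63 and 11.37 in supine lungs. It too was below the controls on every ventilated array, at -1.43 ± 0.41 (adjusted p = 0.147). Ltbp2, which binds fibrillin, stood at 1.16 ± 0.61 and Emilin2, an elastin-associated glycoprotein, at 1.31 ± 0.94. The list's median was -0.19.

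Lysyl oxidases did not share 1 direction. Lox, which starts cross-links in collagen and elastin, read 11.96 and 11.43 in controls, 12.74, 11.84 and 12.01 in prone and 12.58, 12.15 and 12.05 in supine lungs. All supine arrays and 2 of the 3 prone arrays exceeded both controls, with the first arrays highest, and the difference was 0.53 ± 0.34 (adjusted p = 0.421). The second Lox probe set had its lowest supine value, 10.75, on supine 1 and gave 0.16 ± 0.37. Loxl1, the family member that acts on elastin, read 12.21 and 11.69 in controls, 9.50, 11.82 and 10.36 in prone and 10.62, 11.42 and 11.29 in supine lungs. The supine arrays lay below both controls and prone 2 between them, and the difference was -1.12 ± 0.58 (adjusted p = 0.333). Loxl2 and Loxl3 stood at -0.71 ± 0.96 and -0.27 ± 0.40. On prone 1 the distance from the control mean was 1.04 for Lox and -2.45 for Loxl1.

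Fibrillar collagens had a median difference of -0.30 over 6 tested genes, with 2 above 0, 4 below and 0 at an unadjusted p under 0.05. Without the first arrays the median was 0.14. Col1a1 and Col1a2 encode the chains of type I collagen. Col1a1 read 11.14 and 11.40 in controls, 9.09, 12.19 and 9.87 in prone and 8.71, 11.38 and 11.10 in supine lungs. Col1a2 read 13.23 and 13.46 in controls, 11.76, 13.53 and 13.08 in prone and 10.11, 13.10 and 12.71 in supine lungs. Both were far below the controls on the first arrays and near or above them on the second, and Col1a2 on supine 1 lay at -3.24 from its control mean. Their differences were -0.88 ± 0.95 and -0.97 ± 0.82, which shrank to -0.13 and -0.24 without the first arrays. The second Col1a2 probe set gave -0.47 ± 0.84. In supine against control lungs it gave -0.54 ± 0.93, where the chosen one gave -1.38 ± 0.91. Col3a1, the type III chain that runs with type I in distensible tissue, read 14.17 and 14.30 in controls, 13.20, 14.37 and 14.04 in prone and 12.82, 14.42 and 14.09 in supine lungs. Its second arrays were above both controls, and the difference was -0.41 ± 0.49.

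Type V collagen sets the diameter of type I fibrils. With all 8 arrays and no replicate block it had no gene at an unadjusted p under 0.05, and its genes differed in sign. Col5a1 read 6.77 and 7.62 in controls, 7.47, 9.79 and 8.83 in prone and 7.60, 9.17 and 8.70 in supine lungs. The first arrays lay just under the higher control and the other 4 above it, with a difference of 1.40 ± 0.66 (adjusted p = 0.296). With the replicate block it stood at 1.32 ± 0.36 (unadjusted p = 0.0111 and adjusted p = 0.166 by limma). It stood at 1.93 ± 0.41 without the first arrays (unadjusted p = 0.00491 and adjusted p = 0.0699 by limma). The second Col5a1 probe set gave -0.43 ± 0.97, the opposite sign. Col5a2 stood at -0.20 ± 0.56. Col5a3 read 6.57 on prone 2 and 6.01 on supine 3 and at most 4.73 elsewhere.

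Among fibril-associated collagens, Col14a1 was low by the brighter of its probe sets and Col9a3 high. The median of the 4 tested genes was 0.08, or -0.07 with the replicate block. Col14a1, which binds fibrils in interstitial tissue, read 8.85 and 9.29 in controls, 6.59, 9.89 and 6.98 in prone and 5.81, 8.05 and 6.83 in supine lungs. Every ventilated array but prone 2 lay below both controls, and the difference was -1.71 ± 0.93 (adjusted p = 0.351). The second Col14a1 probe set gave -0.70 ± 1.01, and -0.29 ± 1.13 in prone against control lungs. It read 5.97 and 6.64 in controls and 8.34 on prone 2, and supine 3 lay between the controls. Col9a3, a type IX chain best known from cartilage, read 3.41 and 3.37 in controls, 4.10, 6.86 and 3.80 in prone and 4.15, 4.03 and 6.22 in supine lungs. Its values above log2 5 were those of prone 2 and supine 3. On the same 2 arrays the cardiac markers, 5 tested of 9 listed, had medians of 5.86 and 5.01 above the control mean, against -0.05 to 0.47 on the other ventilated arrays. The mean log2 level of these markers was 2.88 and 2.93 in controls, 3.09 to 9.06 in prone and 3.29 to 7.56 in supine lungs. Whether that tissue was the source of Col9a3 and Col5a3 was not tested. The difference of Col9a3, 1.47 ± 0.91 with all arrays, was 0.98 without prone 2. Col12a1 and Col16a1 stood at 0.09 and 0.06.

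Type VI, VII and VIII collagens held the 3 members with an unadjusted p under 0.05 and had a median difference of 0.51 over 7 genes. Col7a1 encodes the anchoring fibril collagen that fastens epithelial basement membranes to the stroma. It read 3.48 and 3.73 in controls, 5.47, 6.38 and 6.37 in prone and 4.98, 6.46 and 7.52 in supine lungs. All 6 ventilated arrays exceeded both controls, whose values are too low to be separated from background. The group means were 3.61 ± 0.18 (SD, n = 2), 6.07 ± 0.52 (SD, n = 3) and 6.32 ± 1.28 (SD, n = 3). The fitted difference was 2.59 ± 0.62 (limma, unadjusted p = 0.00369, adjusted p = 0.115), a description whose size depends on control values at background level, for a gene that entered only through its ventilated arrays. With prone 1 and supine 1 both left out, an alternative added after seeing the data, the difference was 3.07 ± 0.35 with an adjusted p of 0.0351 by limma. Col7a1 was then the 1 member past the threshold, beside 413 probe sets in all (2.44%). The same limit of the filter holds for this call. In the same fit 15 members (against 29.3% of probe sets) reached an unadjusted p under 0.05 in ventilated against control lungs, 12 in prone (28.4%) and 13 in supine lungs against control (21.1%) and 1 in supine against prone lungs (12.3%). The 1 member past adjustment in prone against control lungs was again Col7a1 (4.31% of probe sets passed).

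Col6a5, a long chain of the beaded type VI filaments, read 10.68 and 11.37 in controls, 12.03, 12.28 and 13.00 in prone and 12.32, 13.00 and 13.15 in supine lungs. Its lowest ventilated array exceeded the higher control by 0.66, and the first arrays dipped less than those of most members. The difference was 1.60 ± 0.38 (limma, unadjusted p = 0.00355, adjusted p = 0.114). The other type VI chains were also above 0. Col6a3 stood at 1.16 ± 0.61, Col6a2 at 0.51 ± 0.25 with its groups apart, Col6a1 at 0.43 ± 0.26 and Col6a6 at 0.40 ± 0.74. The second, dimmer Col6a2 probe set gave 1.12 ± 0.42 (limma, unadjusted p = 0.0294, adjusted p = 0.214), also with its groups apart.

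Col8a2, a chain of the network-forming type VIII collagen of vessel walls, read 9.80 and 9.74 in controls, 6.58, 8.88 and 8.91 in prone and 7.47, 8.90 and 8.33 in supine lungs. It was the member of this group that lay lower, on every ventilated array. The difference was -1.59 ± 0.68 (limma, unadjusted p = 0.0483, adjusted p = 0.258) and -1.02 ± 0.25 without the first arrays (adjusted p = 0.0819). Col13a1, a transmembrane collagen of cell-matrix junctions, also lay below both controls on all 6 ventilated arrays, at -0.70 ± 0.35. Col17a1, the transmembrane collagen of hemidesmosomes, stood at -0.12 ± 0.37.

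**Figure D5:**
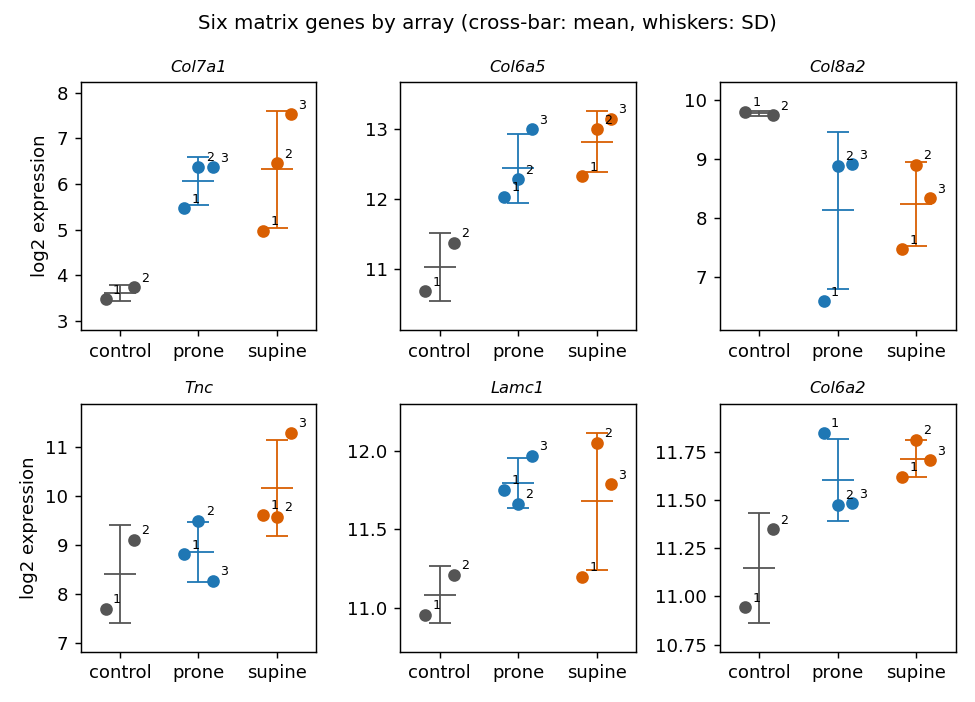
Log2 expression (y axis) of Col7a1, Col6a5, Col8a2, Tnc, Lamc1 and Col6a2 by group (x axis); points are arrays with their replicate number, cross-bars the group means and whiskers the SD. Col7a1 and Col6a5 lie above and Col8a2 below both controls on all 6 ventilated arrays, while Tnc reaches 11.30 on supine array 3.

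Basement membrane collagens had a median difference of 0.33, with 5 of 6 tested genes above 0 and 0 at an unadjusted p under 0.05. With the replicate block 3 of the 6 were above 0 with a median of 0.0012, and in supine against control lungs 2 of 6 with a median of -0.10, so the group had no common direction in that fit. Col4a1 read 12.02 and 12.07 in controls, 12.04, 12.62 and 12.92 in prone and 11.90, 13.19 and 12.35 in supine lungs. Its neighbour Col4a2, across the start region printed above, read 11.88 and 11.88 in controls, 11.68, 11.66 and 12.41 in prone and 11.74, 12.40 and 12.82 in supine lungs. On prone 2 the pair parted, with Col4a1 above its controls and Col4a2 below. Their differences were 0.46 ± 0.40 and 0.24 ± 0.36, and with the replicate block Col4a2 stood at -0.01. Col18a1 stood at 0.46 ± 0.60, Col4a6 at 0.43 ± 1.04, Col15a1 at 0.02 ± 0.59 and Col4a5 at -0.45 ± 0.58. Endothelial markers, 9 tested of 11 listed, lay below the control mean on every ventilated array, with medians of -1.28 to -0.19, and their mean log2 level was 12.52 and 12.56 in controls, 11.36 to 12.26 in prone and 11.56 to 12.26 in supine lungs. Their part in these values was not tested.

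Laminins and nidogens had a median difference of 0.40, with 8 of 11 genes above 0 and 0 at an unadjusted p under 0.05. Without the first arrays, left out after the values had been seen, the median was 0.78 and 9 of 11 were above 0. In that fit 7 (Lama2, Lama4, Lama5, Lamb2, Lamc1, Lamc3 and Nid1) reached an unadjusted p under 0.05, beside 29.3% of all probe sets. All 7 were higher and 0 passed adjustment. The mean of the first arrays was below that of the other ventilated arrays for all 11 genes, so the higher direction is in part built into leaving them out. Lamc1, the gamma chain of most laminins, read 10.96 and 11.21 in controls, 11.75, 11.66 and 11.97 in prone and 11.20, 12.05 and 11.79 in supine lungs. Every prone array exceeded the controls and supine 1 did not, and the difference was 0.65 ± 0.30 (adjusted p = 0.282). Lama4, the alpha chain of vessel laminin, read 10.02 and 10.53 in controls, 10.47, 11.05 and 11.60 in prone and 10.40, 10.79 and 11.16 in supine lungs. The first arrays lay between the controls, and the difference was 0.64 ± 0.38. Lama5, of alveolar and vessel basement membranes, stood at 0.76 ± 0.40 with all 6 ventilated arrays above both controls, and Lama2 at 1.26 ± 0.84.

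Nid2, which links laminin to type IV collagen, read 7.49 and 7.70 in controls, 5.20, 7.55 and 8.11 in prone and 5.73, 8.35 and 8.39 in supine lungs. Its values on the first arrays lay about 2 units below the controls and the others beside or above them, and the difference was -0.38 ± 0.94, or 0.50 ± 0.25 without the first arrays. Lama3 and Lamb3, which together form part of the laminin of hemidesmosomes, were the other members of this group below 0, at -0.91 ± 0.61 and -0.73 ± 0.45. Lama3 reached log2 5 on both control arrays but on only 2 ventilated arrays, so its lower values may be background. Lamb3 read below both controls on all supine arrays. The remaining genes, Lamb1, Lamb2, Lamc3 and Nid1, stood between 0.20 and 0.60.

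Small leucine-rich proteoglycans, which coat collagen fibrils, had arrays on both sides of their controls. Dcn, decorin, read 10.30 and 11.45 in controls, 10.97, 11.65 and 10.96 in prone and 11.11, 10.21 and 9.88 in supine lungs. Lum, lumican, read 10.04 and 10.87 in controls, 9.44, 11.41 and 10.68 in prone and 9.22, 10.67 and 11.03 in supine lungs. Bgn, biglycan, read 12.24 and 12.43 in controls, 12.25, 13.02 and 12.94 in prone and 11.75, 12.72 and 12.11 in supine lungs. All 3 overlapped the controls in both positions. Lum stood at -1.02 and -1.24 from its control mean on prone 1 and supine 1, and Dcn at -0.995 on supine 3. Their differences were -0.08 ± 0.45, -0.05 ± 0.65 and 0.13 ± 0.35, and the signs of Dcn and Lum turned when arrays were centred on their medians (0.03 and 0.06).

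Adhesive and matricellular glycoproteins were Fn1, Sparc and Tnc, with a median of 0.48 in ventilated against control lungs. Fn1, fibronectin, which forms a provisional matrix after injury, read 12.36 and 12.07 in controls, 11.96, 12.57 and 13.00 in prone and 12.36, 13.20 and 13.08 in supine lungs. The prone arrays overlapped the controls and the supine arrays lay at or above the higher one, with a difference of 0.48 ± 0.37 for ventilated against control. Sparc, a collagen-binding matricellular protein, read 13.39 and 13.44 in controls, 12.68, 13.58 and 13.57 in prone and 12.72, 13.46 and 13.17 in supine lungs. The first arrays were low and the second just above the controls, and the difference was -0.22 ± 0.35. The second Sparc probe set lay below both controls on all 6 ventilated arrays, at -1.36 ± 0.58 (limma, unadjusted p = 0.0493, adjusted p = 0.26). Of the 16 genes with several tested probe sets, 3 gave both signs in this comparison.

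Against the controls, each position on its own gave 0 members past the adjusted p, against 9 probe sets in each case (0.0533%). In prone lungs 2 members, Col7a1 and Col6a5, reached an unadjusted p under 0.05 by limma, or 3.92% against 17.7% of all probe sets, and 4 did with the replicate block (18.5% of probe sets), those 2 with Col5a1 and Col8a2. In supine lungs 3 did, Col7a1, Col6a5 and Tnc, or 5.88% against 15.2%. With the block 8 did (16.9%), namely Col7a1, Col6a5, Col5a1, Col6a3, Col1a2, Col14a1, Col8a2 and Col13a1, and Tnc no longer did (unadjusted p = 0.0604 by limma). Prone arrays lay apart from the controls for 10 members (19.6% against 48.6%), with 7 higher and 3 lower (20.9% and 27.7% of probe sets). Supine arrays lay apart for 19 (37.3% against 41.8%), with 11 higher and 8 lower (20% and 21.8%). Differences above 0 were found for 32 members in prone (62.7% against 43.5% of probe sets) and 27 in supine lungs (52.9% against 46.2%). The 2 comparisons share their controls. Col7a1 stood at 2.46 ± 0.70 in prone (adjusted p = 0.152) and 2.71 ± 0.70 in supine lungs (adjusted p = 0.213), and Col6a5 at 1.41 ± 0.43 (adjusted p = 0.17) and 1.80 ± 0.43 (adjusted p = 0.206). Without the 3 members that entered through ventilated arrays alone, Col7a1 among them, the supine median was 0.06 and the prone 0.17. Of the 48 members left, 1 in prone and 2 in supine lungs had an unadjusted p under 0.05 by limma. Prone arrays lay apart from the controls for 8 of the 48 and supine arrays for 16. Differences were above 0 for 29 of them in prone and 24 in supine lungs. The member medians, 0.19 in prone and 0.22 in supine lungs, ranged from -0.08 without prone 2 to 0.43 without prone 1, and from -0.10 without supine 3 to 0.50 without supine 1.

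Supine against prone lungs, the comparison that bears on body position, called 0 members and 0 probe sets after adjustment, and 0 members at an unadjusted p under 0.05 against 4.09% of probe sets. With the replicate block 0 members did so, against 7.43% of probe sets. The member median was -0.03, with 23 members above 0 (45.1% against 52.9% of probe sets). Tnc, tenascin C, a matricellular protein of injured and remodelling tissue, read 7.69 and 9.11 in controls, 8.82, 9.50 and 8.27 in prone and 9.62, 9.58 and 11.30 in supine lungs. All supine arrays exceeded all prone arrays, by as little as 0.08, and the highest value came from supine 3, the array with the wide beta-actin gap. The supine minus prone difference was 1.30 ± 0.61 (limma, unadjusted p = 0.0682, adjusted p = 0.942), or 0.74 without that array. Against controls Tnc stood at 1.77 ± 0.68 in supine (adjusted p = 0.3) and 0.46 ± 0.68 in prone lungs. Tnc and Loxl3 were the 2 members (3.92%) whose position groups did not overlap, against 5.89% of probe sets. For Loxl3 this rested on values between 5.78 and 5.86 on 5 of the 6 ventilated arrays, with prone 1 at 4.39.

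The largest positive differences after Tnc were Loxl1 (0.55 ± 0.58) and Nid2 (0.54 ± 0.94), and the largest negative ones Col14a1 (-0.92 ± 0.93), Col1a2 (-0.82 ± 0.82) and Dcn (-0.79 ± 0.45). Each is within 2 standard errors of 0. The second probe set of Col1a2 gave -0.15 ± 0.84 and that of Col14a1 -0.82 ± 1.01. All 5 elastic fibre genes were lower in supine lungs, by medians of -0.30, and all 7 type VI, VII and VIII collagens higher, by 0.22, without any reaching an unadjusted p under 0.05. The 4 lysyl oxidases were above 0 (median 0.29; 2 of 4 with arrays centred on their medians) and the 3 small leucine-rich proteoglycans below it (median -0.54).

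Genes that fold, modify and process collagen formed a list of 16 tested genes. Of these, 5 were higher and 1 lower at an unadjusted p under 0.05 in ventilated against control lungs, beside 8.53% and 10.6% of all probe sets, and 0 passed adjustment. The median was 0.23. Plod2, the lysyl hydroxylase of collagen telopeptides, read 8.84 and 9.35 in controls, 11.11, 10.73 and 10.73 in prone and 10.42, 10.28 and 11.28 in supine lungs. Every ventilated array lay above both controls, with a difference of 1.67 ± 0.35 (limma, unadjusted p = 0.0016, adjusted p = 0.101). P4ha1, a catalytic subunit of collagen prolyl 4-hydroxylase, read 10.83 and 11.29 in controls, 12.92, 13.78 and 14.08 in prone and 11.36, 12.31 and 13.74 in supine lungs. It was highest in prone lungs, at 2.53 ± 0.69 over controls (adjusted p = 0.142), against 1.41 ± 0.69 in supine lungs. The related subunit gene P4ha2 stood at 1.16 ± 0.47 and P4ha3 at -0.62 ± 0.26, so the 3 subunit genes did not share a direction. The other 2 with an unadjusted p under 0.05, named after their values were seen, were the collagen chaperone gene Serpinh1 (1.05 ± 0.29) and Bmp1, which cleaves procollagen (0.93 ± 0.30). On prone 1 and supine 1, where most matrix genes were lowest, Plod2 stood at 2.02 and 1.33 from its control mean, P4ha1 at 1.86 and 0.30, and P4ha2 at 1.51 and -0.25.

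Of the other proteoglycans, 0 of 17 tested were higher and 1 lower at an unadjusted p under 0.05 in ventilated against control lungs, beside 8.53% and 10.6% of all probe sets. That was Prelp, which joins basement membranes to collagen, at -1.18 ± 0.36 (adjusted p = 0.155) and below both controls on all 6 ventilated arrays. Hspg2, perlecan of basement membranes, stood at 1.44 ± 0.66 and above both controls on all 6. Vcan, versican, stood at 1.79 ± 1.08. Among 14 other matrix glycoproteins, 1 was lower, Egfl6 (named after its value was seen, -0.70 ± 0.28), and 0 higher, while Spp1, osteopontin, stood at 1.56 ± 0.81 and Smoc2 at 1.04 ± 0.67. The list medians were -0.59 and -0.08. In supine against control lungs 3 proteoglycans were lower at an unadjusted p under 0.05 (Prelp, Gpc3 and Sdc1, the last 2 named after their values were seen) and 0 of the other glycoproteins, beside 8.05% of all probe sets, and 2 of the collagen folding genes were higher, beside 7.18%. In prone lungs 5 of the folding genes were higher, beside 7.67%, and 1 lower, beside 10%.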

How the data were processed

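RNA of 8 rat lungs was amplified from 300 ng of total RNA, labelled with biotin and hybridised to Affymetrix rat arrays, per the labels. The log2 values the authors deposited are GCRMA summaries and Partek 6.5 was used, per the submitters' processing notes; filters and further scaling by the authors are not stated there. The table held 20242 probe sets. After 28 control probe sets were set aside, 16896 with log2 5 or more on at least 2 arrays were tested and 3318 were not. With 8 arrays, the precision is limited by their number.

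Differences between group means were estimated by limma 3.58.1 under R 4.3.3, with all 8 arrays in 1 fit and empirical Bayes moderation (5 residual and 2.51 prior degrees of freedom), two-sided, with Benjamini-Hochberg adjustment over all tested probe sets within each comparison. The script was tested on simulated data. The comparisons were prone, supine and their average against control, and supine against prone; those against control share it. P-values compare each difference with the spread between these samples within groups, moderated toward that of all tested probe sets. Members, lists and tests were chosen with earlier results of these data known. Values on all arrays are given for members with an unadjusted p under 0.05 in the ventilated comparison, for the 3 highest and 3 lowest differences of each comparison and for 17 members the rule lists, and at most the 3 highest and 3 lowest of each pathway list are named. Lists are described by counts and medians. Symbols are those of the platform annotation in GEO; 56 of 56 member identifiers were found in RefSeq (GRCr8) and 0 symbols differed. Deviations from the group means over all probe sets correlated at 0.11 to 0.72 in the 7 same-numbered pairs of arrays, highest for prone 1 with supine 1. Differently numbered pairs ran from -0.59 to 0.40, the highest being prone 3 with supine 2, so apart from the first pair the numbers did not stand out. The deviations of the 2 controls mirror each other, so pairs with controls are not independent. The replicate number was also fitted as a block as an alternative, and the labels do not say what shares a number.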

Additional observations from a re-analysis of the deposited data

How the results depend on the processing

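Under 17 alternative settings, 0 members passed an adjusted p of 0.05 in any comparison, with 1 exception added after seeing the data. Without the first prone and first supine arrays, the count was 1 in prone against control and 1 in ventilated against control, each time Col7a1 (2.76, adjusted p = 0.0396, and 3.07, adjusted p = 0.0351, by limma), which passed the filter only through ventilated arrays, so this call is not independent of that filter. Members at an unadjusted p under 0.05 then numbered 12, 13, 1 and 15 in prone and supine against control, supine against prone and ventilated against control. The shares of all probe sets were 28.4%, 21.1%, 12.3% and 29.3%. In ventilated against control lungs of this fit the elastic fibre median was -0.39 and that of fibrillar collagens 0.14. With the replicate block 0 members passed, as without it, and the unadjusted counts were 4, 8, 0 and 6 against 2, 3, 0 and 3. The shares of all probe sets were 18.5%, 16.9%, 7.43% and 19.8% with the block, against 17.7%, 15.2%, 4.09% and 19.2%. Leaving out 1 array at a time gave unadjusted counts of 1 to 6, 2 to 6, 0 to 1 and 1 to 6, and 0 adjusted calls throughout. The shares of all probe sets then ran from 7.02% to 21.3%, 5.08% to 23.8%, 1.6% to 13.4% and 6.74% to 24.3%. Without a filter the unadjusted member counts were 4, 4, 0 and 5, given here without the share of all probe sets.

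Signs turned for 7 of 51 members in ventilated against control lungs without the first arrays, the largest of them Loxl2 (-0.71 to 0.09), Col4a5 (-0.45 to 0.07) and Nid2 (-0.38 to 0.50), and for 6 with the block. In that comparison Dcn was 0.032 with centred arrays and 0.11 with the block, and ranged from -0.65 to 0.50 over arrays left out; Lum was 0.060 with centred arrays and 0.49 without the first arrays, with a range of -0.47 to 0.37; Col4a2 was -0.011 with the block and Sparc 0.031 without the first arrays. In supine against prone lungs Col8a2 was -0.28 without the first arrays, and arrays left out gave ranges of -0.66 to 0.50 for Col8a2, -0.35 to 0.92 for Col7a1, -0.34 to 1.42 for Nid2, -1.54 to 0.11 for Col14a1 and -1.38 to 0.11 for Col1a2. Tnc in prone against control lungs ranged from -0.24 to 1.17. The cause was not tested. Centring the arrays moved the median of all probe sets in ventilated against control lungs from -0.10 to 0.01, and the member median from 0.13 to 0.24. Without supine array 3, which had the widest gap between the 3′ and 5′ probe sets of beta-actin, the member median in supine against control lungs went from 0.22 to -0.10. No detection calls were used, so low values such as those of Col7a1 in controls may be background.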

Other observations

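Cytl1, a cartilage-associated gene, was the 1 tested gene of 10 listed for cartilage, a tissue of the airway wall rich in type IX collagen. It read 10.53 and 10.80 in controls, 4.29, 10.32 and 9.66 in prone and 7.66, 8.77 and 9.33 in supine lungs, all 6 ventilated arrays below both controls. Its lowest values fell on prone 1 and supine 1, as those of most matrix genes did, while Col9a3 was at 4.10 and 4.15 there. Mesothelial markers, 7 tested of 8 listed, lay below the control mean on every ventilated array, by medians from -3.65 to -1.33, and 2 of the 7 passed the adjusted p in ventilated against control lungs by limma. Airway epithelial markers, 4 tested of 7 listed, had medians of 2.58 on prone 2 and -0.06 to 1.11 on the other ventilated arrays.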
